A study of Mus musculus with 4 samples.

Results

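The genes described here are 10 genes of phagocyte activation: the Fc receptors Fcgr1 and Fcgr3, the signalling adaptors Fcer1g and Tyrobp, the receptor Trem2, the lysosomal and scavenger genes Cd68, Msr1 and Lgals3, and the surface and cytoskeletal genes Cd53 and Aif1. They were taken by name from the arrays' gene annotation, with older symbols allowed. All 10 were found, on 17 probes of 41174 non-control probes, and all 10 were among the 19127 genes tested of 27670 names on the array. The study followed the mouse brain after permanent middle cerebral artery occlusion (PMCAO), in which a nylon filament left in the artery closes it for good. The groups were PMCAO at 6 h, sham at 6 h, PMCAO at 24 h and sham at 24 h, each of 3 male C57BL/6J mice aged 8 to 12 weeks. Sham mice had the neck opened and the carotid artery exposed, with no filament. All 4 groups received saline into a cerebral ventricle, so the controls carry the injection as well as the surgery. The sample labels give the tissue as brain, and the design text says that the hemisphere opposite the occlusion was hybridised.

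Each of 4 two-colour arrays carried PMCAO and sham RNA of one time together, and the 2 arrays of a time had the dyes exchanged. The labels do not say whether these 2 arrays held separate RNA, so every p-value measures the spread between arrays, which may be technical. Between 66.3% and 73.7% of probes were well above background in PMCAO RNA and between 67.3% and 73.6% in sham RNA. The log2 ratios of the 2 arrays of a time correlated at 0.582 at 6 h and 0.671 at 24 h over the tested genes, a description across genes and not across samples. Arrays of the same dye layout at different times correlated at 0.612 and 0.628, above the 2 arrays of 6 h. All 12 neuronal, all 11 astrocyte and all 12 oligodendrocyte marker genes tested were above background on both arrays of all 4 groups.

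Phagocytes, which in the brain are microglia, border macrophages and, after injury, monocytes and neutrophils from the blood, recognise debris and antibody-coated targets through surface receptors. Fc receptors bind antibody and many of them, like Trem2, have no signalling tail of their own. They pair with the adaptors Fcer1g or Tyrobp, whose cytoplasmic ITAM motifs recruit the kinase Syk. Scavenger receptors such as Msr1 take up modified lipoproteins and debris, and Cd68 sits in the membranes of the late endosomes and lysosomes that receive the cargo. Lgals3 is a galectin that binds sugars on damaged membranes and is made in quantity by activated macrophages.

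The arrays measured each transcript by a 60-base probe, and the probes that carried the results for Lgals3, Tyrobp and Cd53 are shown with the second probes of Fcgr3 and Aif1, which repeat those genes' results. The letters are the array's own, 5′ to 3′, with no part in capitals.
Lgals3: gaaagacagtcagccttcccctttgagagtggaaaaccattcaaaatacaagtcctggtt
Tyrobp: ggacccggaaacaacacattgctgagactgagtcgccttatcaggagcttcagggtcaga
Cd53: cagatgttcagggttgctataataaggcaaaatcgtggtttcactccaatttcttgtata
Fcgr3, second probe: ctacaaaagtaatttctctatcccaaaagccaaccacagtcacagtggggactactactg
Aif1, second probe: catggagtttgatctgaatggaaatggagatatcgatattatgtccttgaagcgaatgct

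In the array's mm7 coordinates, the Lgals3 probe lies at chr14:42712515-42713331 on the plus strand and the Tyrobp probe at chr7:27358831-27360558 on the plus strand. On the minus strand lie the Cd53 probe at chr3:106580416-106581510, the second Fcgr3 probe at chr1:171030474-171030533 and the second Aif1 probe at chr17:33268568-33268813. The spans of 9 of the 17 probes are longer than the 60 bases of the probe, from 64 to 2162 bases. Whether the shorter of these are split on the genome was not tested. The brightest Fcgr1 probe has a span of 47 bases, shorter than the probe. No annotation of this build was used, so exons and introns are not named. Fcgr3 belongs to a family of closely related Fc receptors, and cross-hybridisation between relatives was not tested.

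At 24 h, 8 of the 10 genes were higher in PMCAO than in sham RNA, against 1499 of all 19127 genes tested, or 7.84% (limma, Benjamini-Hochberg adjusted p under 0.05). None of the 10 was lower, against 4.52% of all genes. Aif1 alone was lower at an unadjusted p under 0.05 in limma, against 2539 of all 19127 genes. The median log2 ratio of the 10 genes was 0.90 at 24 h, against 0.00082 for all genes tested. At 6 h none of the 10 passed the test, while 0.816% of all genes were higher and 0.0366% were lower. Their median log2 ratio was then 0.17, against -0.0051 for all genes, and 9 of the 10 ratios were above 0, against 48.1% of all genes. 3 genes, Fcgr3, Cd53 and Fcer1g, were higher at an unadjusted p under 0.05 in limma, against 1179 of all 19127 genes. These 3 passed when 6 h was fitted alone, with adjusted p of 9.32e-06, 0.0149 and 0.0330 in limma. Leaving out either 24 h array gave that same fit at 6 h. They also passed with the dye layout as a replicate block (0.000631, 0.0221 and 0.0217). In both of these fits the log2 ratios equalled those of the main fit, so only the estimated spread and its degrees of freedom differed. Over all genes, the fit of 6 h alone called 940 higher and the block 1131, against 156 in the main fit. With the signals of Feature Extraction taken as they stand, the split over all genes at 24 h was 1243 higher and 1163 lower, against 1499 and 864 here, and the same number of members, 8, was higher. Under median centring in place of the intensity-dependent loess correction, none of the 10 passed at 24 h, with log2 ratios of the 8 genes between 0.46 and 2.73.

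**Figure D1:**
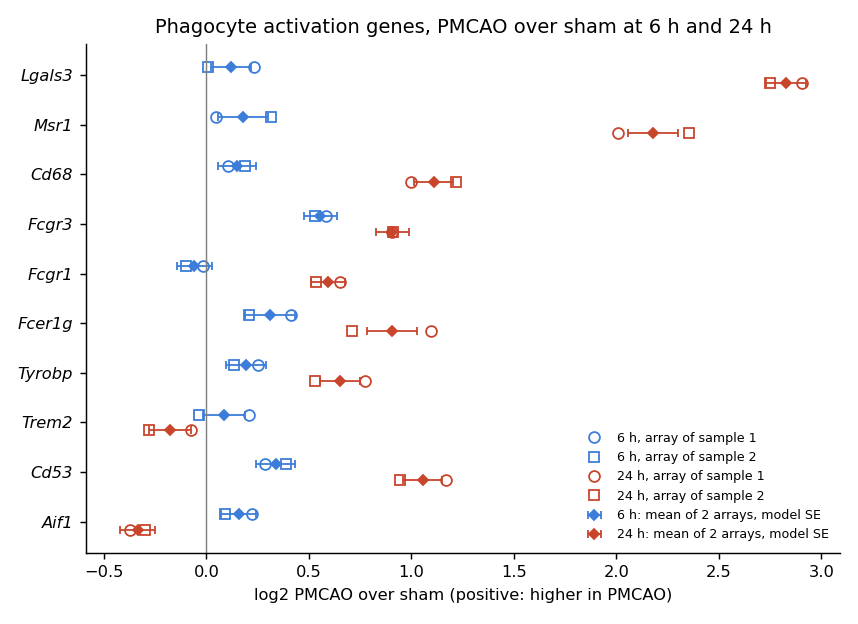
Log2 PMCAO over sham for the 10 genes, 1 row a gene, with open symbols for the 2 arrays of each time, diamonds for their mean and bars for the model SE (blue 6 h, red 24 h). At 24 h Lgals3 and Msr1 lie farthest to the right, at 2.83 and 2.18, while Trem2 and Aif1 lie below 0.

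Lgals3 had the largest ratio of the 10 at 24 h, except with the processed signals and with the series table, where Msr1 was above it (log2 ratios of 3.89 and 3.84 for Msr1, against 3.11 and 3.09 for Lgals3). At 24 h its log2 intensity was 10.97 and 10.81 in PMCAO RNA on the 2 arrays, against 8.07 and 8.06 in sham RNA. The log2 ratios were 2.91 and 2.75, with a mean of 2.83 ± 0.098 (model SE, n = 2 arrays), a 7.10-fold difference with an adjusted p of 0.000202 in limma. Both PMCAO values stood far above both sham values, with a gap between the groups many times the gap between arrays. At 6 h the intensities were 9.12 and 9.03 in PMCAO RNA and 8.89 and 9.02 in sham RNA. The 6 h log2 ratio of 0.12 ± 0.098 did not pass the test, with an adjusted p of 0.939 in limma. The low sham values at 24 h are part of the large ratio, as the comparison of times shows.

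Msr1 encodes the class A scavenger receptor. Its intensity at 24 h was 8.81 and 8.76 in PMCAO RNA, against 6.81 and 6.41 in sham RNA. The log2 ratios of 2.01 and 2.35 gave a mean of 2.18 ± 0.12 (model SE, n = 2 arrays), or 4.53-fold, with an adjusted p of 0.000635 in limma. PMCAO values were well separated from sham values, although the sham values lay close to background. With the processed signals the log2 ratio was 3.89 at 24 h (0.0122) and 1.48 at 6 h (0.245), so the size of the Msr1 difference depended on which signals were used. In sham RNA at 6 h this probe was not well above background on either array, so the size of the 6 h difference, 1.13-fold as measured, is uncertain. The 6 h intensities were 6.79 and 6.82 in PMCAO RNA and 6.74 and 6.51 in sham RNA, and the ratio did not pass the test (adjusted p of 0.870 in limma).

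The other 2 probes of Msr1 gave the same direction at 24 h. Neither was well above background on any sham array at 24 h, so the sizes of their differences are uncertain. As measured they were 4.28-fold and 2.66-fold higher in PMCAO, with adjusted p of 0.000472 and 0.00278 in the limma fit over single probes. A floor for the sham signal was set on each array at the lowest signal of any probe well above background. It left these fold values unchanged, so they are measured ratios and not lower limits. The brightest probe lies at chr8:38396605-38398766 (mm7, minus strand), the probe with the 4.28-fold difference at chr8:38394471-38394530 and the third at chr8:38414609-38414668.

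Cd68, the lysosomal membrane protein used as a histological marker of phagocytes, was read by 1 probe at chr11:69746386-69746445 on the minus strand. At 24 h its intensity was 10.13 and 10.20 in PMCAO RNA, against 9.13 and 8.99 in sham RNA. The mean log2 ratio was 1.11 ± 0.093 (model SE, n = 2 arrays), from 1.00 and 1.22, or 2.16-fold with an adjusted p of 0.00234 in limma. The groups did not overlap, and PMCAO was higher on both arrays. At 6 h the intensities were 9.28 and 9.26 in PMCAO RNA and 9.18 and 9.07 in sham RNA, and the log2 ratio of 0.15 ± 0.093 did not pass (adjusted p of 0.834 in limma).

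In the wider scavenger, galectin and lysosomal lists, most genes did not pass the test at 24 h. Of 14 other scavenger receptor genes tested, 5 were higher at 24 h and none was lower, with a median log2 ratio of 0.32. Among them Marco, a scavenger receptor of macrophages, had a log2 ratio of 0.99 (adjusted p of 0.0032 in limma) and Scara5, a ferritin receptor, 1.17 (0.0026). Scarb1, the high-density lipoprotein receptor, had 0.31 (0.111). Of 8 other galectin genes, 1 was higher, Lgals1 at 0.55 (0.0277), while Lgals4 was at 0.31 (0.0728), Lgals3bp, a glycoprotein that galectins bind, at 0.49 (0.0582) and the galectin-related Lgalsl at 0.11 (0.540). Of 29 other lysosome and phagosome genes, 6 were higher and none was lower, with a median of 0.22. The cathepsins Ctsc and Ctsl had log2 ratios of 1.07 (0.0034) and 0.90 (0.0088), while the cathepsin Ctsh had 0.039 (0.824) and the lysosomal lipase Lipa 0.074 (0.689). None of these 3 lists had a gene past the test at 6 h.

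The Fc receptors Fcgr3 and Fcgr1 had unlike log2 ratios at 6 h, where neither passed the test. Fcgr3, the low-affinity receptor for immune complexes, had an intensity at 24 h of 11.40 and 11.27 in PMCAO RNA, against 10.50 and 10.36 in sham RNA. Its log2 ratios of 0.90 and 0.91 gave a mean of 0.91 ± 0.080 (model SE, n = 2 arrays), or 1.87-fold with an adjusted p of 0.00267 in limma. The 2 arrays agreed more closely for Fcgr3 than for any other of the 10 genes at 24 h, with a gap of 0.0072 in log2 ratio. At 6 h its intensity was 11.15 and 11.12 in PMCAO RNA, against 10.57 and 10.59 in sham RNA. That log2 ratio, 0.56 ± 0.080, was the highest of the 10 genes at 6 h and missed the threshold with an adjusted p of 0.0616 in limma.

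Fcgr1, the high-affinity receptor for monomeric antibody, was 10.84 and 10.75 in PMCAO RNA at 24 h, against 10.19 and 10.22 in sham RNA. The log2 ratio was 0.59 ± 0.085 (model SE, n = 2 arrays), or 1.51-fold, with an adjusted p of 0.0128 in limma. At 6 h Fcgr1 was 9.74 and 9.66 in PMCAO RNA and 9.76 and 9.76 in sham RNA, and its ratio of -0.058 ± 0.085 was the only one of the 10 below 0 (adjusted p of 1.00 in limma). So Fcgr3 stood above sham on both arrays at 6 h and Fcgr1 did not. Every other member but Trem2 also stood above sham on both arrays at 6 h. The difference between Fcgr3 and Fcgr1 was not tested.

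The second probes of both receptors moved the same way as the first. For Fcgr3 the second probe gave log2 ratios of 0.49 ± 0.092 at 6 h and 1.06 ± 0.092 at 24 h, and for Fcgr1 -0.10 ± 0.083 at 6 h and 0.46 ± 0.083 at 24 h (model SE, n = 2 arrays). The 24 h values of both passed in the limma fit over single probes, with adjusted p of 0.00331 and 0.0287. Of 4 other Fc receptor genes tested, 2 were higher at 24 h. Fcgr2b, the inhibitory Fc receptor, had a log2 ratio of 1.46 (adjusted p of 0.0037 in limma), and Fcgr4, an activating receptor, had 1.44 (0.0006). Fcgrt, the neonatal Fc receptor that recycles antibody, had -0.16 (0.559).

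Fcer1g, the common gamma chain that Fcgr1, Fcgr3 and several lectin receptors signal through, was 11.30 and 11.15 in PMCAO RNA at 24 h, against 10.20 and 10.45 in sham RNA. Its log2 ratios of 1.10 and 0.71 differed by 0.39, the widest gap between arrays among the 10 genes at 24 h. The mean was 0.90 ± 0.12 (model SE, n = 2 arrays), or 1.87-fold with an adjusted p of 0.0109 in limma, and both PMCAO values lay above both sham values. At 6 h it was 10.55 and 10.45 in PMCAO RNA, against 10.14 and 10.24 in sham RNA, with a log2 ratio of 0.31 ± 0.12 (adjusted p of 0.561 in limma). Its second probe gave 0.23 ± 0.14 at 6 h and 0.83 ± 0.14 at 24 h (model SE, n = 2 arrays), with an adjusted p of 0.0256 at 24 h in the limma fit over single probes.

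Tyrobp, the adaptor also called DAP12 that carries the signal of Trem2, was 12.18 and 11.98 in PMCAO RNA at 24 h, against 11.41 and 11.45 in sham RNA. The log2 ratio of 0.65 ± 0.098 (model SE, n = 2 arrays), or 1.57-fold, passed the test with an adjusted p of 0.0150 in limma. At 6 h it was 11.78 on both arrays in PMCAO RNA, against 11.53 and 11.64 in sham RNA, with a log2 ratio of 0.19 ± 0.098 (adjusted p of 0.723 in limma). PMCAO values of Tyrobp lay above sham values on both arrays of both times.

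Trem2, the lipid-sensing receptor that signals through Tyrobp, had a 24 h log2 ratio below 0, unlike its adaptor, and this difference between the genes was not tested. At 24 h it was 12.28 and 12.22 in PMCAO RNA, against 12.36 and 12.50 in sham RNA. The log2 ratio was -0.18 ± 0.10 (model SE, n = 2 arrays) with an adjusted p of 0.328 in limma. Both PMCAO values lay just below both sham values, and the difference did not pass the test. At 6 h it was 12.46 and 12.30 in PMCAO RNA and 12.25 and 12.34 in sham RNA, overlapping, with a log2 ratio of 0.086 ± 0.10 (adjusted p of 1.00 in limma). The second Trem2 probe gave 0.087 ± 0.090 at 6 h and -0.14 ± 0.090 at 24 h (model SE, n = 2 arrays).

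Other receptors that use these adaptors were mostly higher at 24 h. Of 14 other ITAM receptor and adaptor genes tested, 10 were higher and 1 was lower at 24 h, with a median log2 ratio of 0.75. None passed at 6 h. Among the 10, Trem1 and Trem3 were well above background on both arrays only in PMCAO RNA at 24 h, and Clec4d only in PMCAO RNA. These genes entered the test through the RNA where they were high. Clec4d and Clec4e, lectin receptors that signal through Fcer1g, had log2 ratios of 3.58 (adjusted p of 0.0002 in limma) and 2.20 (0.0012), although in sham RNA at 24 h only 1 array measured Clec4d above background. Trem1, a Tyrobp-coupled receptor of neutrophils and monocytes, was 2.83-fold higher in PMCAO at 24 h as measured (0.0007). It was not well above background on either sham array, so the size of this difference is uncertain. The gene that was lower was Siglech, a microglial receptor that also uses Tyrobp, at -1.01 (0.0024). Siglech and Trem1 also stand among the microglia and neutrophil markers. Of 11 receptors with inhibitory ITIM motifs, 5 were higher and 1 was lower at 24 h, and 2 were already higher at 6 h. These 2 were Cd300lf, at 1.68 (0.0108) at 6 h and 3.15 (0.0002) at 24 h, and Pirb, at 0.84 (0.0231) and 2.31 (0.0002). 1 of the 2 tested probes of Cd300lf gave 3.15 at 24 h and the other 0.55.

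Downstream of the adaptors, 10 of 24 ITAM signalling genes were higher at 24 h and none was lower, with a median log2 ratio of 0.27. Plek, a protein kinase C substrate of blood cells, had 1.32 (adjusted p of 0.0009 in limma), the small GTPase Rac2 had 1.06 (0.0020), and the exchange factor Vav3 had -0.32 (0.0620). All 7 genes of the phagocyte oxidase, the enzyme complex that makes superoxide in the phagosome, with its proton channel, were higher, with a median of 0.78 and a range from 0.55 to 1.39. Ncf4, a cytosolic subunit, had the highest ratio at 1.39 (0.0007), and Hvcn1, the proton channel, had 0.63 (0.0103). None of the 7 passed at 6 h.

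Cd53, a tetraspanin of leukocytes, was 9.18 and 9.05 in PMCAO RNA at 24 h, against 8.01 and 8.10 in sham RNA. The log2 ratios of 1.17 and 0.94 gave a mean of 1.06 ± 0.095 (model SE, n = 2 arrays), or 2.08-fold with an adjusted p of 0.00288 in limma. At 6 h it was 8.50 and 8.46 in PMCAO RNA, against 8.21 and 8.07 in sham RNA. The 6 h log2 ratio of 0.34 ± 0.095 had an adjusted p of 0.322 in limma. Of 23 other tetraspanins, 4 were higher at 24 h and none was lower, with a median of 0.12. Among them were Tspan4 at 1.09 (0.0014), Tspan8 at 0.93 (0.0033) and Cd9 at 0.84 (0.0039).

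Aif1, which encodes the actin-bundling protein Iba1 used to stain microglia, went the other way. At 24 h it was 11.01 and 11.02 in PMCAO RNA, against 11.38 and 11.32 in sham RNA, lower on both arrays. The log2 ratios of -0.37 and -0.30 gave a mean of -0.34 ± 0.085 (model SE, n = 2 arrays), or 0.792-fold. The mean missed the threshold with an adjusted p of 0.0625 in limma, and passed it with the dye layout as a replicate block (0.00393). That block called 3683 of all genes lower at 24 h, against 864 in the main fit. At 6 h Aif1 was 11.22 and 11.06 in PMCAO RNA, against 11.00 and 10.97 in sham RNA, with a log2 ratio of 0.16 ± 0.085 (adjusted p of 0.766 in limma). The second probe gave -0.72 and -0.20 on the 2 arrays at 24 h, the same direction with a wide gap between arrays, and an adjusted p of 0.113 in the limma fit over single probes. Of 22 other genes of phagocyte actin dynamics, 10 were higher and 2 were lower at 24 h, with Capg, an actin filament capping protein, at 1.86 (0.0006) and Ezr, a membrane-to-actin linker, at 1.16 (0.0012).

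**Figure D2:**
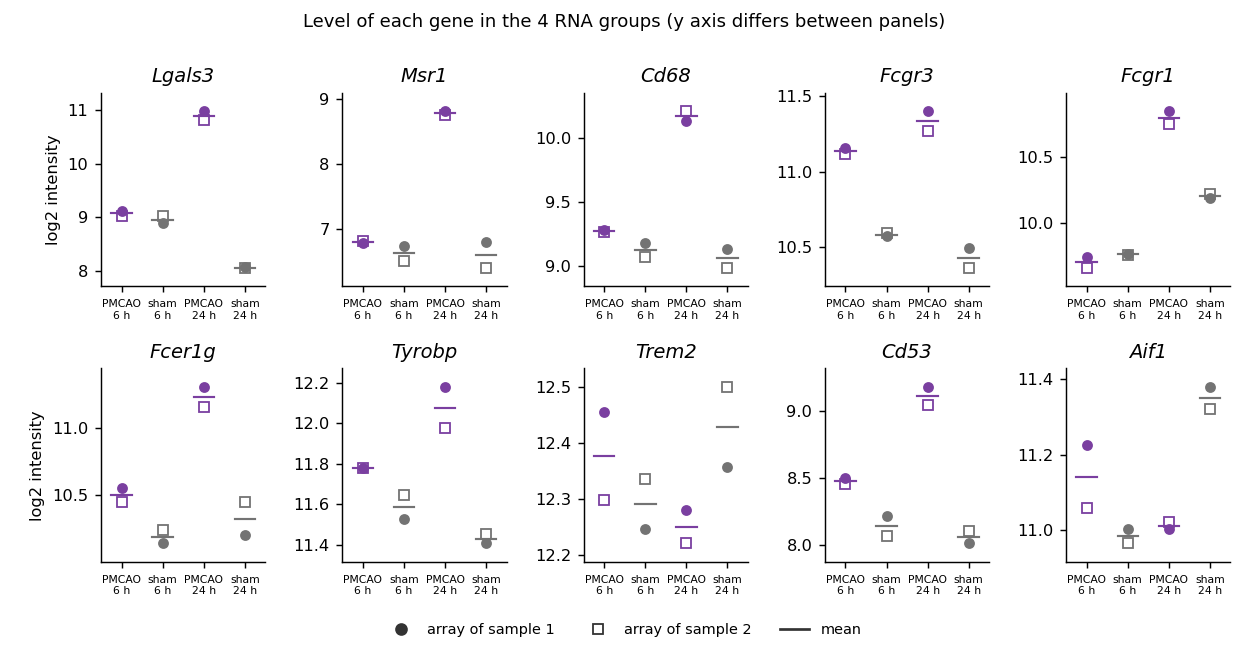
Log2 intensity of each gene's brightest probe in PMCAO (purple) and sham (grey) RNA at 6 h and 24 h, with a filled circle for the array of sample 1, an open square for that of sample 2 and a line for their mean, and a y axis of its own in every panel. Sham values of Lgals3 were lower at 24 h than at 6 h, sham values of Fcgr1 and Aif1 were higher, and PMCAO values of Aif1 lay near 11.0 at 24 h.

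A direct test of the ratio at 24 h minus the ratio at 6 h called 3 of the 10 genes higher, against 1.29% of all genes. It called none lower, against 0.298% of all genes. Lgals3 differed by 2.71 ± 0.14 (model SE, adjusted p of 0.00457 in limma), Msr1 by 2.00 ± 0.17 (0.0133) and Cd68 by 0.96 ± 0.13 (0.0396). The Cd68 call was lost when every probe was its own row (adjusted p of 0.0502). It was also lost when only genes well above background in both channels of all arrays were kept (0.0515). Leaving out the first or the second 6 h array lost it too, at differences of 0.92 and 1.00, in fits with a single array at 6 h. With the signals of Feature Extraction as they stand, Cd68 (0.0978) and Msr1 (0.165) were no longer called. The other 7 genes did not pass, with Fcgr1 at 0.65 ± 0.12 (0.0778), Cd53 at 0.72 ± 0.13 (0.0799), Fcer1g at 0.59 ± 0.17 (0.201), Tyrobp at 0.46 ± 0.14 (0.218), Fcgr3 at 0.35 ± 0.11 (0.242), Trem2 at -0.26 ± 0.15 (0.522) and Aif1 at -0.49 ± 0.12 (0.141). With the first 24 h array left out, the differences were 0.59 for Fcgr1, 0.61 for Cd53 and -0.45 for Aif1. With the second left out, they were 0.71, 0.83 and -0.53, with 0.79 for Fcer1g and 0.58 for Tyrobp. Such a fit holds a single array at 24 h, so its p-values measure no spread at that time and are not given. In a fit with a replicate block for the dye layout, shared by arrays of one sample number, 6 of the 7 passed. These were Fcgr1 (adjusted p of 0.00125 in limma), Cd53 (0.00152), Fcer1g (0.00265), Tyrobp (0.0093), Fcgr3 (0.0293) and, as lower, Aif1 (0.00759). Over all genes the block called 1685 higher and 1530 lower in the difference, against 246 and 57 in the main fit.

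Reading the channels separately gave the change of each RNA between the times. In PMCAO RNA, 7 of the 10 genes were higher at 24 h than at 6 h, against 10.9% of all genes, and none was lower, against 9.49%. In sham RNA, 1 of the 10 was higher, against 1.86% of all genes, and 1 was lower, against 1.69%. These values share their samples with the ratios above and depend on the scaling between arrays.

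The 2 genes that changed in sham RNA were Fcgr1 and Lgals3. Lgals3 was higher by 1.82 ± 0.084 in PMCAO RNA at 24 h than at 6 h (adjusted p of 2.02e-05 in limma), while in sham RNA it fell by 0.89 ± 0.084 (0.00351). Fcgr1 was higher at 24 h in both, by 1.10 ± 0.072 in PMCAO RNA (7.47e-05) and by 0.44 ± 0.072 in sham RNA (0.0210). The sham call was lost without the first or the second 6 h array, at differences of 0.46 and 0.43. Those fits hold a single array at 6 h, so their p-values measure no spread at that time. For Aif1 the changes were -0.13 ± 0.082 in PMCAO RNA (0.307) and 0.36 ± 0.082 in sham RNA (0.0537). Neither change passed the test.

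For the rest, Msr1 was higher at 24 h in PMCAO RNA by 1.98 ± 0.15 (adjusted p of 0.000134 in limma), Cd68 by 0.89 ± 0.079 (0.000300), Fcer1g by 0.73 ± 0.093 (0.00162), Cd53 by 0.63 ± 0.085 (0.00210) and Tyrobp by 0.30 ± 0.087 (0.0455). The Tyrobp call was lost without the first 24 h array, at a difference of 0.20. It was also lost without the first or the second 6 h array, at 0.30 each. Such fits hold a single array at the time of the array left out, so their p-values measure no spread at that time. Fcgr3, at 0.20 ± 0.087 (0.145), and Trem2, at -0.12 ± 0.082 (0.339), did not pass. In sham RNA the changes of these 7 genes lay between -0.16 for Tyrobp and 0.14 for Trem2.

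**Figure D3:**
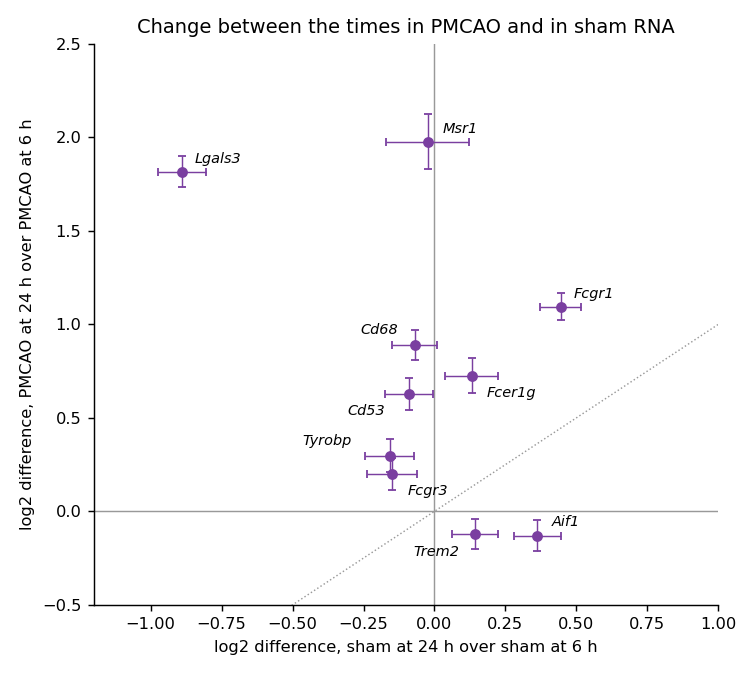
Log2 difference between 24 h and 6 h in PMCAO RNA (vertical axis) against that in sham RNA (horizontal axis) for the 10 genes, with bars for the model SE and a dotted line where both are equal. Lgals3 stands at the left, at -0.89 in sham and 1.82 in PMCAO RNA, and Trem2 and Aif1 lie below the dotted line.

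The mean log2 ratios of the 10 genes on the 4 arrays, 0.23 and 0.17 at 6 h and 1.01 and 0.94 at 24 h, were set against every other tested gene with a regular symbol. The 5 genes at the smallest Euclidean distance over the 4 arrays were Prss56 (0.0893), Ddc (0.111), Akr1b8 (0.115), Sdc1 (0.129) and Heg1 (0.135).

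Promoters of 8 of the 10 genes were looked up in RefSeq (GRCm38.p6), leaving Msr1 and Tyrobp. The letters GAGGAA, the core bound by PU.1, the transcription factor of the myeloid lineage, were searched on both strands, where they read TTCCTC on the other strand. They occurred in the 300 bases around the start, from 250 before to 50 after, of 6 of the 8 genes and in 28.3% of 32851 promoters in the table. In the 60 bases before the start they occurred in 5 of the 8, namely Fcgr1, Fcgr3, Cd53, Trem2 and Aif1, and in 6.08% of all promoters. The 100 bases before the start are printed for these 5 and for Fcer1g and Lgals3, which held no match in the 300 bases, with matches in capitals.
Fcgr1: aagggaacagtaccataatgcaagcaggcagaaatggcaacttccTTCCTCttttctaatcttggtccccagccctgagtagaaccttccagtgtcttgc
Fcgr3: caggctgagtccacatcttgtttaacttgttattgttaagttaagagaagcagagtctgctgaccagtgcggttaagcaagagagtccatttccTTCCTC
Cd53: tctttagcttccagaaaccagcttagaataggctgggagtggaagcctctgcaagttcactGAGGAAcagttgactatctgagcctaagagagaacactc
Trem2: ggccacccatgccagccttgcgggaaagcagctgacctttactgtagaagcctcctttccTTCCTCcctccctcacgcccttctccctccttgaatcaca
Aif1: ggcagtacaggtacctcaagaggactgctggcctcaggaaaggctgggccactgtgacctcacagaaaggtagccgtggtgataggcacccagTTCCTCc
Fcer1g: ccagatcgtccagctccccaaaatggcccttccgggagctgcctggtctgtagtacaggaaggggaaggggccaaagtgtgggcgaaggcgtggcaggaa
Lgals3: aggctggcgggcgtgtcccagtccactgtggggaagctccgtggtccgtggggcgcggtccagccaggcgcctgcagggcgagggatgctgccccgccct

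The printed windows are chr3:96293970-96294069 for Fcgr1, chr1:171059404-171059503 for Fcgr3, chr3:106790150-106790249 for Cd53, chr17:35176053-35176152 for Aif1 and chr1:171234350-171234449 for Fcer1g, all on the minus strand. On the plus strand are chr17:48346301-48346400 for Trem2 and chr14:47373760-47373859 for Lgals3. In the 60 bases before the start, the letters were present in Fcgr1, Fcgr3 and Cd53, which were higher at 24 h. They were also present there in Trem2 and Aif1, which did not pass the test. The 300 bases of Lgals3 and Fcer1g, both higher at 24 h, held no match. Cd68, also higher, held matches in the 300 bases but none in the 60 before the start. Members were counted by gene, and the background by promoter. A match of letters is a description and shows no binding.

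Genes that mark microglia, monocytes and neutrophils moved in opposite directions at 24 h. In bulk RNA, fewer cells of a type and less RNA per cell cannot be told apart. Of 14 homeostatic microglia markers tested, 8 were lower in PMCAO and 1 was higher at 24 h, with a median log2 ratio of -0.50. Among them were Gpr34 at -1.37 (adjusted p of 0.0031 in limma), Slc2a5 at -1.30 (0.0018) and Siglech at -1.01 (0.0024), while Cx3cr1 was at -0.15 (0.382). The log2 of the summed signal of the list was 15.69 and 15.70 in PMCAO RNA at 24 h, against 15.70 and 15.75 in sham RNA, and all 14 were above background in every group.

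Of 15 monocyte and macrophage markers tested, 10 were higher and 1 was lower at 24 h, with a median of 0.95, and none passed at 6 h. Chil3, a secreted chitinase-like protein of monocytes and neutrophils, had the highest ratio, 4.37 (0.0002), followed by Thbs1 at 2.38 (0.0002) and Cd44 at 1.70 (0.0004). Their log2 summed signal was 14.41 and 14.40 in PMCAO RNA at 24 h, against 13.22 and 13.34 in sham RNA, and 11 of the 15 were above background on both sham arrays. Of 12 neutrophil markers tested, 3 were higher at 6 h and 9 at 24 h. S100a9 had log2 ratios of 2.61 at 6 h and 5.84 at 24 h, and S100a8, its partner, 1.92 and 5.27. The log2 summed signal of the neutrophil list at 24 h was 15.97 and 16.20 in PMCAO RNA, against 11.12 and 11.19 in sham RNA, and at 6 h 13.67 and 13.78 in PMCAO RNA, against 11.77 and 11.62 in sham RNA. In sham RNA at 24 h, 7 of the 12 were above background on both arrays, and in PMCAO RNA 11 of the 12. Genes of the monocyte and neutrophil lists could enter the test through PMCAO RNA alone, so their counts of higher genes are not independent of that filter.

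Microglial genes linked to disease states were also mostly higher. Of 21 such genes other than members, 12 were higher and none was lower at 24 h, with a median log2 ratio of 0.68, Spp1 at 2.98 (0.0002) and Ccl6 at 2.40 (0.0002). Of 9 border macrophage markers, 4 were higher at 24 h, with Pf4 at 1.45 (0.0059), Lyve1 at 1.11 (0.0050) and F13a1 at 1.04 (0.0033). No lymphocyte or natural killer cell marker of the 6 tested passed at either time. The list held 14 genes, all on the array, so most were too dim to be tested. In PMCAO RNA at 24 h, 3 of the 6 were above background on both arrays. Of 4 red blood cell markers 1 was higher at 24 h, Hba-a1 at 0.52 (0.0187). The part of any of these cells in the ratios of the 10 genes was not tested.

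**Figure D4:**
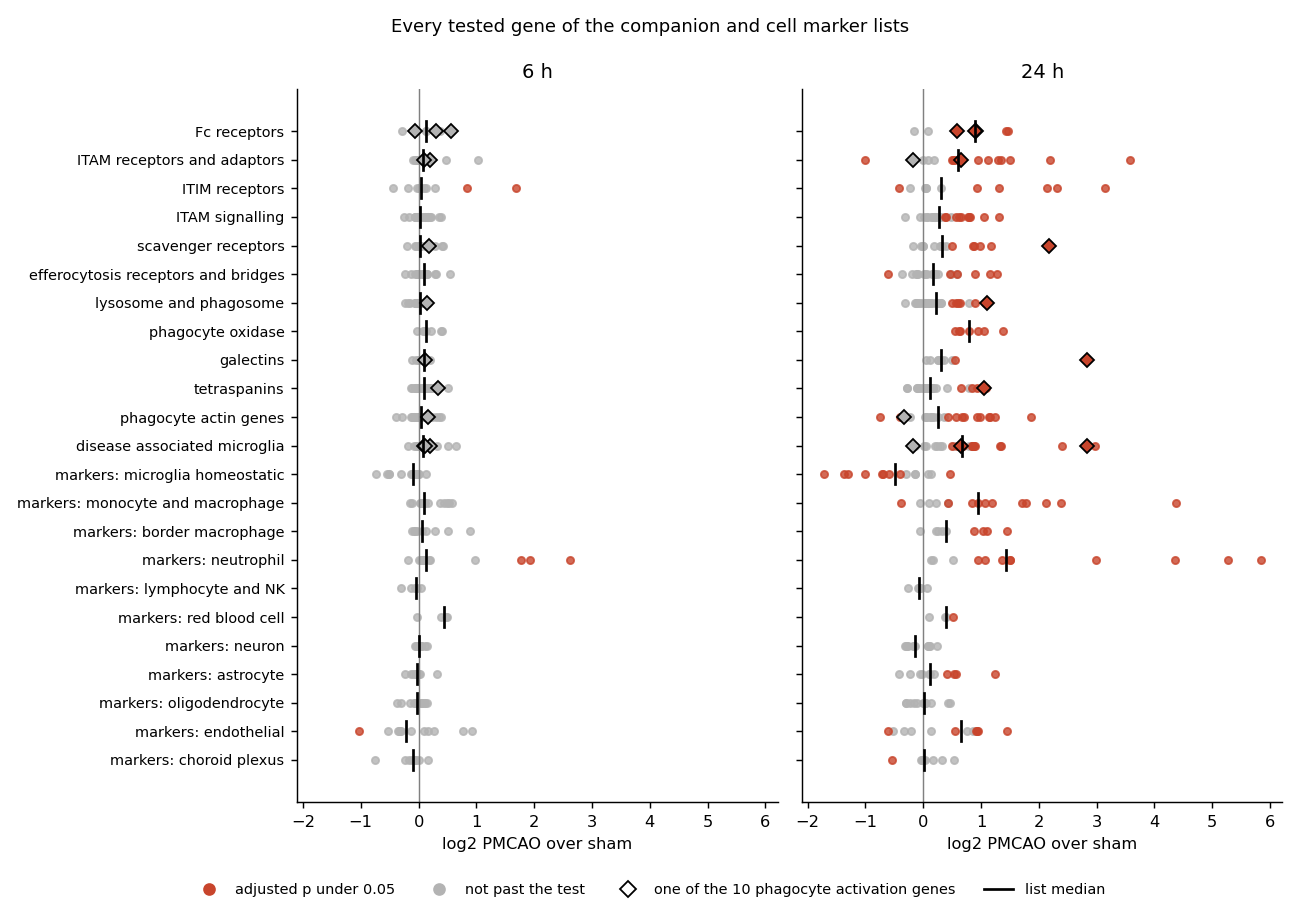
Log2 PMCAO over sham of every tested gene of each list at 6 h (left) and 24 h (right), red where the adjusted p was under 0.05 and grey elsewhere, with black-edged diamonds for the 10 phagocyte activation genes and a black line at each list's median. At 24 h the neutrophil list reaches 5.84 for S100a9 and the homeostatic microglia list has its median at -0.50.

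Among the remaining brain cell markers, 4 of 11 astrocyte genes were higher at 24 h, led by Gfap at 1.25 (0.0037), and 5 of 12 endothelial genes were higher and 1 lower, with Cdh5 at 1.45 (0.0034) and Slco1a4 at -0.62 (0.0167). None of 12 neuronal and none of 12 oligodendrocyte genes passed at 24 h (limma, adjusted p). Of 8 choroid plexus genes, 1 was lower, Kcne2 at -0.55 (0.0416). Of 21 receptors and bridging proteins for the uptake of dying cells, 5 were higher and 1 was lower at 24 h, with Anxa1 at 1.28 (0.0014), Pros1 at 1.15 (0.0022) and Havcr2 at 0.46 (0.0412).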

How the data were processed

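4 two-colour Agilent whole-genome mouse arrays were analysed, all from 1 slide and 1 scan, 2 for each time. The submitters' processing notes name Agilent Feature Extraction 9.5.3.1, and the authors deposited its spot intensity and log10 ratio values, per the file headers. A further deposited table of the whole series held signed linear values of other scale: their sizes equalled the ratio of processed Cy5 to Cy3 signal for 100% of probes, negative throughout on the arrays of sample 1 and positive on those of sample 2, so the table was used only as an alternative, turned to log2 PMCAO over sham.

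Mean intensities were background-corrected by normexp with an offset of 50, normalised within arrays by loess with control spots at weight 0, and turned to log2 PMCAO over sham (R 4.3.3, limma 3.58.1). Replicate spots were averaged, and each gene was represented by its brightest probe. A gene entered the test if 1 or more of the 4 RNA groups had it well above background on each of its 2 arrays. A gene could therefore enter through the group where it was high. Probe names were updated by RefSeq accession for 22951 probes, by current symbol for 6659 and by older symbol for 3109, and kept for 8455. Both times were fitted in 1 linear model with 2 residual and 3.53 prior degrees of freedom, and p-values were adjusted over all genes by the Benjamini-Hochberg method at 0.05. Changes between the times within PMCAO or sham RNA came from a separate-channel model after scaling of mean intensities between arrays, with an intraspot correlation of -0.418. Nearest profiles were the 5 genes with a regular symbol at the smallest Euclidean distance from the members' mean. The fits were tested on simulated data. Figures were drawn with matplotlib.

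The 10 members and the companion and marker lists were chosen with earlier results of these data known. Companion genes were named by rule, for each list the 2 non-members lowest in p at 6 h and the 2 lowest at 24 h, with others named only where a count called for it. The number of arrays limits the precision, and no list was tested as a set.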

Additional observations from a re-analysis of the deposited data

Results flagged for a closer look

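3 members had a PMCAO over sham ratio that differed between the times in a direct test of the difference. Lgals3 differed by 2.71 on the log2 scale (24 h minus 6 h, adjusted p of 0.00457 in limma), higher on both arrays of 24 h than on both of 6 h. Msr1 differed by 2.00 (0.0133), with its sham signal at 6 h not well above background. Cd68 differed by 0.96 (0.0396), a call that was lost without either 6 h array. With 2 arrays a time, no array could be examined as standing apart from its group.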

How the results depend on the processing

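For the ratio at 24 h, 8 members were called higher under each alternative except median centring, under which 0 passed, and the filter on all arrays, which kept 9 of the 10 genes and called 7 of those. The counts with an array left out come from fits with a single array at that array's time. Their p-values hold no spread from that time, so these counts are no measure of stability. With each array left out in turn, members higher at 24 h stayed at 8 and lower ranged from 0 to 1, members higher at 6 h from 0 to 3, and in the difference between the times from 2 to 7 higher and 0 to 1 lower. In PMCAO RNA between the times they ranged from 6 to 7 and in sham RNA from 0 to 1 higher. Over all genes the ranges were 76 to 940 higher and 0 to 354 lower at 6 h, 1235 to 2920 and 602 to 2840 at 24 h, 167 to 1564 and 14 to 1350 in the difference, 676 to 2204 and 371 to 2001 in PMCAO RNA, and 32 to 764 and 69 to 763 in sham RNA.

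With the sample number as a replicate block, which is also the dye orientation, the deviations of same-numbered arrays correlated at 0.718 over genes, in 2 pairs that share the dye layout. The block called 3 members higher at 6 h, 1 lower at 24 h (Aif1) and 8 higher and 1 lower in the difference. Over all genes it called 1131 higher and 571 lower at 6 h, 3913 and 3683 at 24 h, and 1685 and 1530 in the difference. Each time fitted alone, which at 6 h is the same fit as leaving out either 24 h array, called 3 members, and 940 genes higher and 354 lower, at 6 h. The difference between the times called 1 member higher with the processed signals, with the series table and with the filter on all arrays, and 0 under median centring. Over all genes it called 54 higher and 8 lower with the processed signals, 51 and 7 with the series table, 148 and 30 with that filter, 36 lower with no background correction, and 0 and 0 under median centring. Median centring called 0 and 0 at 6 h and 13 and 0 at 24 h, and genes lower at 6 h numbered 22 with the processed signals, 22 with the series table and 14 with no background correction. Quantile normalization of all channels called 2 members and 545 genes higher in sham RNA. The causes were not tested.

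Some values near 0 changed sign with an array left out. The Trem2 ratio at 6 h ranged from -0.037 to 0.21, and in sham RNA between the times Cd68 ranged from -0.15 to 0.0012, Cd53 from -0.17 to 0.0022 and Msr1 from -0.29 to 0.24, with Msr1 at 0.16 under quantile normalization. Taking every probe as its own row, an alternative chosen after seeing the data, changed no member's direction and 1 call, the Cd68 difference between the times (adjusted p of 0.0502). Signals near background limit Msr1.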
